A study of Mus musculus with 8 samples.

Results

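The 10 mouse genes for histone acyltransferases examined here were Ep300, Crebbp, Kat2a, Kat2b, Kat5, Kat6a, Kat6b, Kat7, Kat8 and Hat1, out of 21887 protein-coding genes. They were listed by name, and each was given a window made of its RefSeq span on GRCm38 with 2 kb added on both sides. A peak was assigned to a gene when it overlapped this window by 1 base or more. The peaks mark histone H4 lactylated at lysine 12 (H4K12la), mapped by CUT&Tag, where a transposase tethered to a bound antibody cuts the marked chromatin in place. There were 4 groups of 2 libraries each: microglia of 5XFAD mice, microglia of WT mice, total brain cells of 5XFAD mice and total brain cells of WT mice. 5XFAD mice carry human transgenes with familial Alzheimer's disease mutations, driven by a neuronal Thy1 promoter. In all groups the brain without its cerebellum was dissociated after perfusion and cleared of myelin, and microglia were then taken out with beads against CD11b, a surface protein that other myeloid cells carry too. Age, sex and strain are not stated in the labels. Whether the libraries of one group stem from different mice is not stated either, so the p-values measure only the spread between these libraries.

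Histone acyltransferases move an acyl group from coenzyme A onto lysines of histone tails, which loosens chromatin and makes docking sites for reader proteins. Most are known for acetylation, and several accept other acyl groups: p300, the product of Ep300, has been reported to add lactyl groups to histones, and GCN5, TIP60 and HBO1, the products of Kat2a, Kat5 and Kat7, have been discussed as further lactylation writers. The products of Ep300 and Crebbp are paired coactivators for many transcription factors. Those of Kat2a and Kat2b serve in the SAGA and ATAC complexes. The MYST family comprises Kat5 in the NuA4 complex, Kat6a, Kat6b and Kat7 with BRPF or JADE scaffold proteins, and Kat8 in the MSL and NSL complexes. Hat1 acetylates newly made histone H4 before it is laid down on DNA, at lysine 12 among other sites. The peaks describe the mark on the DNA of these genes and measure neither their RNA nor the activity of the enzymes.

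The lists held 22300 to 41783 peaks in microglia and 22543 to 32967 in total cells, covering 15.3 to 36.3 Mb of the genome in microglia libraries and 7.80 to 14.8 Mb in total cell libraries. Peaks were wider in microglia, with medians of 580 to 735 bp per library, than in total cells, with medians of 287 to 366 bp. Depth is unknown because reads are not counted in the lists, and a gene without a peak is one for which none was listed. Of 15 microglial markers, 13 to 15 had a peak in each microglia library and 2 to 8 in each total cell library. Their summed covered share, in bases per Mb covered by the list, was 1526 to 1926 in microglia, 501 and 411 in 5XFAD total cells and 142 and 334 in WT total cells. Aif1, C1qb and Siglech, 3 of these markers, of which Aif1 and C1qb are found in other macrophages too, had a peak in all 4 microglia libraries and in none of the total cell libraries. Sums for other cell types also differed: 560 to 723 in microglia and 58.7 to 456 in total cells for 5 vascular cell markers, 416 to 500 in microglia and 231 to 364 in total cells for 7 astrocyte markers, and 298 to 531 in microglia and 26.7 to 361 in total cells for 6 oligodendrocyte markers. The vascular and astrocyte sums did not overlap between preparations and the oligodendrocyte sums did. In microglia Pecam1 gave 311 to 487 of the vascular sum and Slc1a3 329 to 477.5 of the astrocyte sum. Mbp gave 259 to 504 of the oligodendrocyte sum. The astrocyte marker Gja1 went the other way, lower in every microglia library than in every total cell library. The sum for 7 markers of other leukocytes was 0 to 26.3 in microglia and 0 to 28.5 in total cells, and that for 9 neuron markers was 19.9 to 43.2 in microglia and 0 to 104 in total cells. Of these neuron markers, 6 had no peak in any library, so the neuronal share of the total cell preparation could not be read from them. The part of cell composition in the values below was not tested, and in such bulk preparations fewer cells of a type and less mark per cell cannot be told apart.

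In all, 331 peaks lay in the windows of the 10 genes, and each gene had at least 1 peak in all 4 microglia libraries. Each microglia library had a peak in 42.4 to 56.1% of all protein-coding genes. The share of genes with one in all 4 was not counted. All 8 libraries had a peak in 7 of the 10 windows, those of Ep300, Crebbp, Kat2b, Kat5, Kat6a, Kat6b and Kat8, against 26.7% of all protein-coding genes, and none of the 10 was without a peak in every library, against 34% of genes. The windows of the 10 genes were long, with a median of 63.1 kb, against 21.2 kb for all genes, and the part of this length in these counts was not tested. Total cells lacked listed peaks in the windows of the remaining 3 genes in different libraries. Kat7 had none in WT total cells, and Hat1 had one only in replicate 1 of 5XFAD total cells. Kat2a had none in its window in replicate 2 of either genotype. None of the 10 was marked in all 4 microglia and no total cell libraries, against 1.2% of genes, or the reverse, against 0.982%. None was marked in both 5XFAD and no WT microglia libraries, against 2.81%, in WT and not 5XFAD microglia, against 0.498%, or in WT and not 5XFAD total cells, against 1.6%. Most peaks lay away from the start sites: 63 of the 331 (19.0%) lay within 2 kb of an annotated start site, 256 (77.3%) elsewhere in a gene span and 12 (3.63%) in the flanks. Each of the 9 genes with an annotated start site had a peak within 2 kb of one in at least 1 library, where 43.4% of all such genes had none. Kat2b, Kat5, Kat6b and Kat8 had one there in all 8 libraries, against 17% of genes. Kat6a peaks were counted as gene span or flank.

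**Figure D1:**
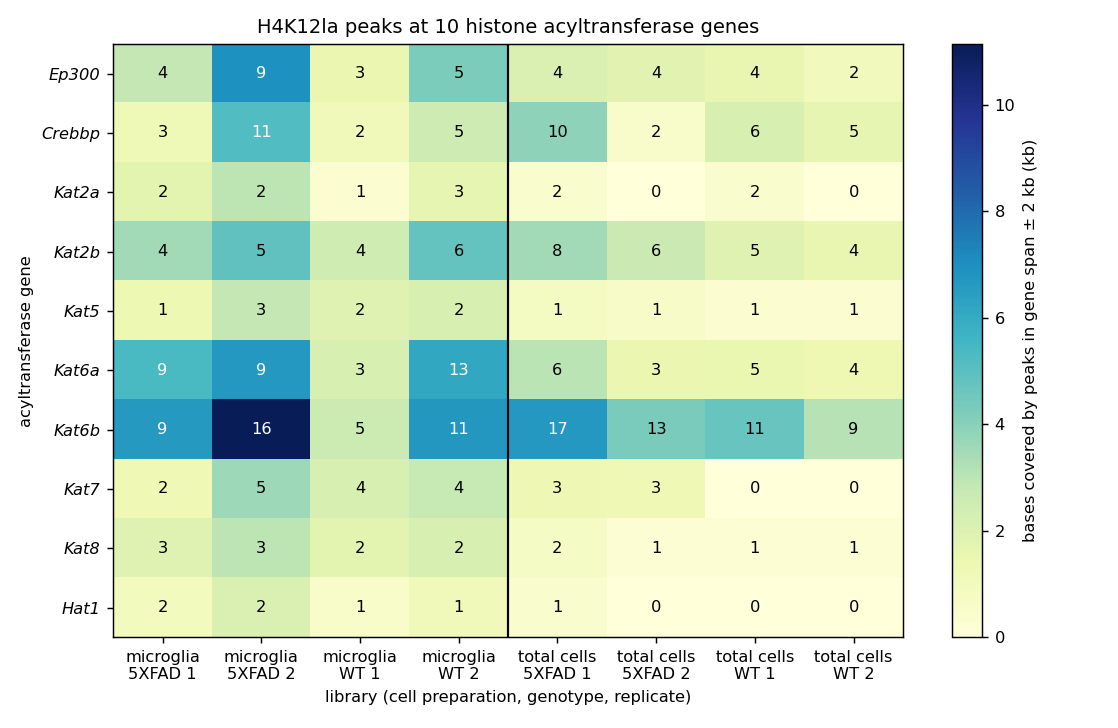
H4K12la peaks in the window (span plus 2 kb) of each of the 10 genes (rows) in each of the 8 libraries (columns), with the number of peaks printed in each cell and the covered bases in kb as its colour. Kat6b carried 5 to 17 peaks in every library, whereas Kat7 was empty in both WT total cell libraries and Hat1 in 3 of the 4 total cell libraries.

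Kat5, Kat8 and Kat7, of the MYST family, and Hat1 carried the mark at or beside the start site in most libraries. Kat5 (gene 81601, chromosome 19, 5603014 to 5611556, minus strand) encodes TIP60, which acetylates H4 at promoters and at DNA breaks. One peak spanned its start site in each of the 8 libraries. It was 1358 and 1562 bp wide in 5XFAD microglia, 1256 and 1197 bp in WT microglia, 824 and 627 bp in 5XFAD total cells and 273 and 322 bp in WT total cells. Its width was 2.16, 2.13, 2.17 and 1.85 times the median of the list in the microglia libraries in that order, 2.25 and 2.01 times in 5XFAD total cells, and 0.858 and 1.12 times in WT total cells. The WT total cell libraries were thus the low ones on both scales. The score, a value per peak given by the authors, placed this peak at percentiles 95.5 and 97.9 of its list in 5XFAD microglia, 93.8 and 93.3 in WT microglia, 87.4 and 78.1 in 5XFAD total cells and 7.53 and 38.5 in WT total cells. Such percentiles describe a peak within its own list and are not compared between lists.

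Kat8 (gene 67773, chromosome 7, 127912517 to 127925838, plus strand) encodes MOF, the enzyme for H4 acetylation at lysine 16. Every library had a peak just upstream of its start site, within a merged region of bases -785 to 171. The peak was 557 and 855 bp wide in 5XFAD microglia, 283 and 678 bp in WT microglia, 505 and 234 bp in 5XFAD total cells and 248 and 224 bp in WT total cells. A second region, 8687 to 10309 bp downstream, was in all 4 microglia libraries and in replicate 1 of 5XFAD total cells. Its peak ranked higher than that at the start site in 3 of the 4 microglia libraries, at percentiles 91.4 and 96.1 in 5XFAD microglia and 75.1 in replicate 1 of WT microglia.

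Kat7 (gene 217127, chromosome 11, 95271853 to 95310246, minus strand) encodes HBO1, which acetylates histone H3 and H4 at promoters and replication origins. A peak lay at its start, in bases -506 to 842, in 6 libraries, and covered the start site itself in 5, ending just inside the gene in replicate 1 of 5XFAD total cells. The peak was 820 and 1161 bp wide in 5XFAD microglia, 1072 and 1151 bp in WT microglia and 611 and 795 bp in 5XFAD total cells. Neither WT total cell library had a peak anywhere in the Kat7 window, which made Kat7 the single gene of the 10 with a peak in both 5XFAD and no WT total cell libraries, a pattern found in 2.86% of all genes. A further region 16619 to 17085 bp inside the gene was in all 4 microglia libraries and in replicate 2 of 5XFAD total cells.

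Hat1 (gene 107435, chromosome 2, 71389260 to 71441622, plus strand) had a peak at its start, in bases -217 to 1326, in 5 libraries. It was 606 and 1505 bp wide in 5XFAD microglia, 555 and 1055 bp in WT microglia and 457 bp in replicate 1 of 5XFAD total cells. Another region, 16107 to 16652 bp downstream, was in both 5XFAD microglia libraries and no other.

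Within the 300 bases around the annotated start (250 before and 50 after), Kat5 and Kat8 had a peak in all 8 libraries, Kat7 in 6, all but those of WT total cells, a pattern of 2.58% of genes, Hat1 and Ep300 in 3, and Crebbp, Kat2a, Kat2b and Kat6b in none. Such a window had a peak in all 8 libraries for 11.9% of genes with a start site and in no library for 53.1%. Of the 10 genes, 9 matched RefSeq promoters of GRCm38.p6, in 13 windows. The windows of Kat5, Kat8, Kat7 and Hat1 are printed 5′ to 3′ because they carried the mark at the start, and those of Ep300 and Crebbp to set 2 related coactivators beside each other. Capitals in the first 4 mark an ETS-type motif, CCGGAAGT on either strand, and in the last 2 a GC box, GGGCGG on either strand, including overlapping matches. The Kat5 window is chr19:5610045-5610344 (minus strand), Kat8 chr7:127912267-127912566 (plus), Kat7 chr11:95310197-95310496 (minus), Hat1 chr2:71389010-71389309 (plus), Ep300 chr15:81585964-81586263 (plus) and Crebbp chr16:4213355-4213654 (minus).
Kat5: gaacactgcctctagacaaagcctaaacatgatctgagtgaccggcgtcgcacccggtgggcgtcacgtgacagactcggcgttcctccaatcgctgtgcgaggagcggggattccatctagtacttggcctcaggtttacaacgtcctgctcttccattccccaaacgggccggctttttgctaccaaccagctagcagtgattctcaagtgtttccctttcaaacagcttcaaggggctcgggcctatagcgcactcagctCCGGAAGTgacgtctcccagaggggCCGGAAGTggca
Kat8: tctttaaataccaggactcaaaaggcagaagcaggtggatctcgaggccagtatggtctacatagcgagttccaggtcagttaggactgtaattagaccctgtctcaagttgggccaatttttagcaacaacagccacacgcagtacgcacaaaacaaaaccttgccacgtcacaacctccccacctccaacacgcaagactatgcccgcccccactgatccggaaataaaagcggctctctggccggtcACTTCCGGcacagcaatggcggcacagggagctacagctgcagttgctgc
Kat7: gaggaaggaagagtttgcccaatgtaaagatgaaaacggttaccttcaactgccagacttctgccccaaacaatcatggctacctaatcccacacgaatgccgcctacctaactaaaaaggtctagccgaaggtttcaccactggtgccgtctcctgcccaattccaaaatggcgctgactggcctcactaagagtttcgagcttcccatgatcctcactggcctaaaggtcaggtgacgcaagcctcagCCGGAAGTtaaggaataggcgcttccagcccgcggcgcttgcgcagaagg
Hat1: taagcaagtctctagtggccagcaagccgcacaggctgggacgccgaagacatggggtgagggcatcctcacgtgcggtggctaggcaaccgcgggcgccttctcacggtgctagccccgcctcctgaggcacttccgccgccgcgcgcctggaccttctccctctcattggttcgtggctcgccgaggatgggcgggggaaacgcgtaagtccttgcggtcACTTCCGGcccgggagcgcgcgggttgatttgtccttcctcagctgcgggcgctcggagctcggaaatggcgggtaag
Ep300: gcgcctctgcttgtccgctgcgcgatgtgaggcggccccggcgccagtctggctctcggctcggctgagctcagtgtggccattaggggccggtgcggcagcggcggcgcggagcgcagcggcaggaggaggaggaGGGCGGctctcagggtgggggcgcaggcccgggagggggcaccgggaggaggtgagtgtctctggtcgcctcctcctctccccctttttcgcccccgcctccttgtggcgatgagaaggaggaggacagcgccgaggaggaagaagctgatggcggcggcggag
Crebbp: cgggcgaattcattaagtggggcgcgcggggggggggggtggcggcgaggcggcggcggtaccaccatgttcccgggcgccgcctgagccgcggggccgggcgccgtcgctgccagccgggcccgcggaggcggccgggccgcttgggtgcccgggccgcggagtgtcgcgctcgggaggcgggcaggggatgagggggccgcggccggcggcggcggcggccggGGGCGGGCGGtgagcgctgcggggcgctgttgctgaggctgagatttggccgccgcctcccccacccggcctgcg

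The ETS-type motif occurred in the printed windows of Kat5, with 2 matches, Kat8, Kat7 and Hat1, and in 5.15% of the 21263 promoter windows of protein-coding genes. It began 13 and 38 bases after the start site in Kat5, at the start site in Kat8 and Kat7, and 28 bases before it in Hat1. None of the windows of Ep300, Crebbp, Kat2a, Kat2b and Kat6b held it. The GC box, found in 46.2% of all windows, was present in those of Ep300, Crebbp, Kat6b, Kat8 and Hat1 and in the second Kat5 window. The 300 bases at Crebbp had a GC content of 82.0% and those at Ep300 72.3%, against a median of 56.3% over all windows. TATAAA, in 12.6% of all windows, occurred in no window of these genes. The motifs were chosen after the sequences had been read, and a match describes the sequence and not a bound site.

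**Figure D2:**
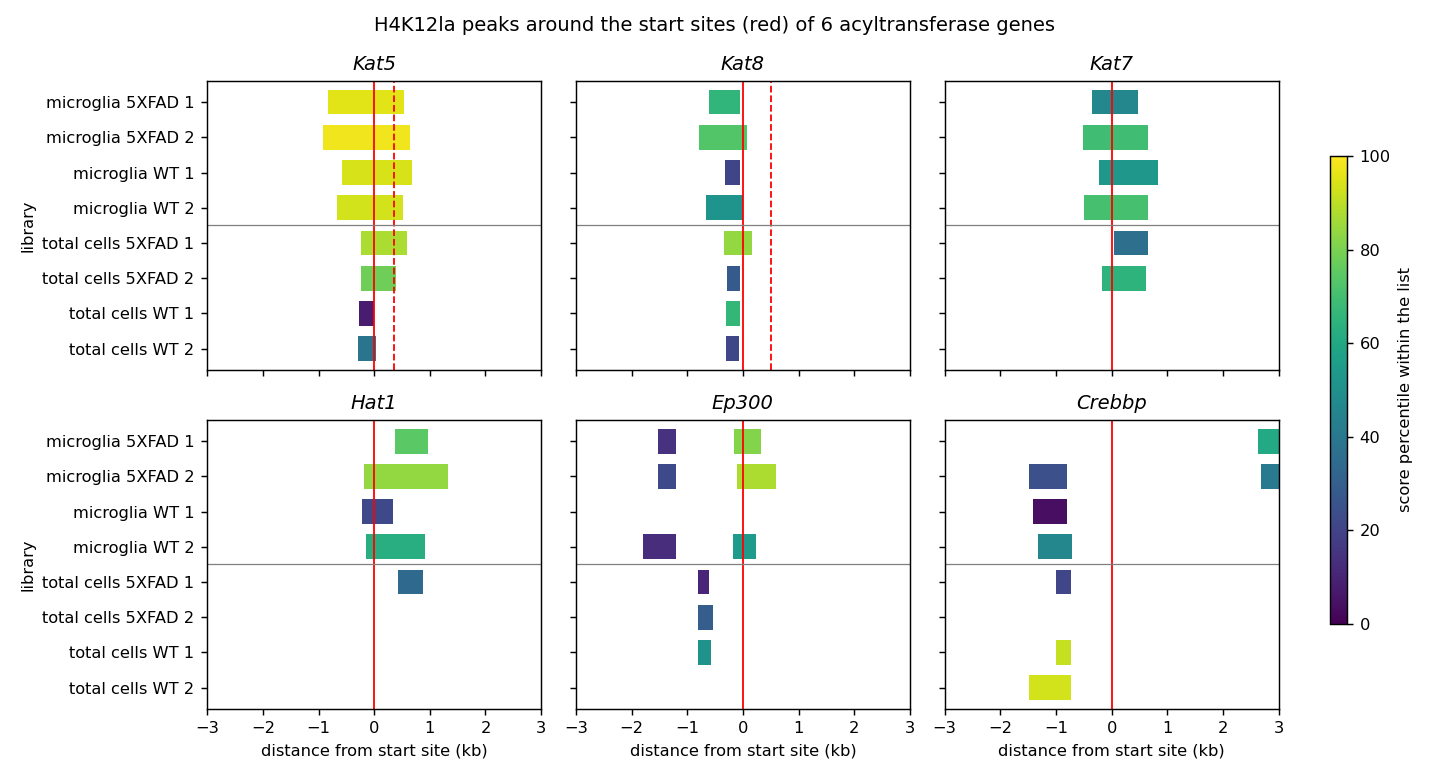
Peaks within 3 kb of the first annotated start site (red, with a further start site dashed) of Kat5, Kat8, Kat7, Hat1, Ep300 and Crebbp in the 8 libraries, with distance in kb along the gene and colour for the score percentile within the list. Kat5 and Kat8 were marked in all 8 libraries, Kat7 in 6 and Hat1 in 5, while the peaks of Ep300 near its start lay at different places in microglia and total cells.

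Ep300 (gene 328572, chromosome 15, 81586209 to 81652077, plus strand) had its start site covered in 3 microglia libraries, both of 5XFAD mice and replicate 2 of WT mice, in bases -173 to 587. No total cell library had a peak there. The same 3 microglia libraries also had a peak upstream, in bases -1797 to -1199, and no total cell library did. Between these sites, 3 total cell libraries had a peak in bases -808 to -533, where no microglia library had one. They were both of 5XFAD mice and replicate 1 of WT mice. How often such patterns occur over all genes was not counted. Inside the gene, a region 6622 to 8605 bp downstream was in all 4 microglia and both 5XFAD total cell libraries and in neither WT total cell library. Its peak was 653 and 1834 bp wide in 5XFAD microglia, 814 and 1272 bp in WT microglia and 280 and 233 bp in 5XFAD total cells. The Ep300 region found in all 8 libraries lay near the other end of the gene, 63041 to 64786 bp from the start site.

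Crebbp (gene 12914, chromosome 16, 4081334 to 4213957, minus strand), the paralogue of Ep300, had no peak on its start site in any library. The nearest region lay upstream, in bases -1490 to -712, and was in 6 libraries, 3 of each preparation. Its peaks stood at percentiles 24.4 in replicate 2 of 5XFAD microglia, 3.78 and 46.3 in WT microglia, 21.0 in replicate 1 of 5XFAD total cells and 91.3 and 93.0 in WT total cells. The most widely shared Crebbp region, 98607 to 99278 bp downstream, was in 7 libraries and missing in replicate 2 of WT total cells.

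Kat2b (gene 18519, chromosome 17, 53566774 to 53672721, plus strand) encodes PCAF, a coactivator acetylase. It had regions in all 8 libraries 810 to 2121 bp after its first start site and 2728 to 4428 bp after its second. A further region, 36273 to 36684 bp after the second start site (chromosome 17, 53620399 to 53620810), was in all 4 total cell libraries and in no microglia library. Its peak was 412 and 319 bp wide in 5XFAD total cells and 309 bp in both WT total cell libraries.

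Kat6a (gene 244349, chromosome 8, 22859442 to 22943259) and Kat6b (gene 54169, chromosome 14, 21499216 to 21672478, plus strand) encode MOZ and MORF, histone H3 acetyltransferases of blood and neural development. Kat6b carried the most peaks of the 10 genes, 9 and 16 in 5XFAD microglia, 5 and 11 in WT microglia, 17 and 13 in 5XFAD total cells and 11 and 9 in WT total cells. Its region 643 to 1485 bp after the first start site was in all 8 libraries. A region 5392 to 6697 bp downstream (chromosome 14, 21505177 to 21506482) was in all 4 microglia and no total cell libraries, and one 169819 to 170472 bp downstream (chromosome 14, 21669604 to 21670257) was in all 4 total cell and no microglia libraries. Kat6a had 9 and 9 peaks in 5XFAD microglia, 3 and 13 in WT microglia, 6 and 3 in 5XFAD total cells and 5 and 4 in WT total cells. Of its regions, 2 were in all 8 libraries, at 22871385 to 22872098 and 22932305 to 22933624 on chromosome 8.

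Kat2a (gene 14534, chromosome 11, 100704746 to 100712485, minus strand), which encodes GCN5, is a short gene between close neighbours. Its 12 peaks fell into sites at both edges of the window, and all 12 overlapped a neighbouring gene, Dhx58 on one side or Hspb9 on the other. The near edge of the Hspb9 site lay 1130 to 1813 bp upstream of the Kat2a start site in 5 libraries. The merged region at this site was in 6 libraries. In replicate 2 of 5XFAD total cells its peak lay just outside the 2 kb flank and was not counted for Kat2a. With the flanks left out, Kat2a kept a peak in 1 library, replicate 2 of 5XFAD microglia, so the presence of the mark in its window was mostly that of the flanks.

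Merging the 8 lists wherever peaks overlapped gave 103 regions in the 10 windows. Of these, 8 were in all 8 libraries, against 8.02% of the 58407 merged regions in gene windows, and 1, in Kat6b, was in all 4 microglia and no total cell libraries, against 4.1%. The 2 total-cell regions in Kat2b and Kat6b compare with 1.33%. By genotype, 5 regions were in both 5XFAD and no WT microglia libraries, against 5.96%, and 8 were in both 5XFAD and no WT total cell libraries, against 5.55%. The opposite patterns, WT without 5XFAD, held for 1 region in microglia, against 1.25%, and for 3 in total cells, against 3.1%. Of the 8 regions in 5XFAD total cells, 4 lay in Kat6b, 2 in Kat7, and 1 each in Ep300 and Kat2b. In 1 of the Kat6b regions (chromosome 14, 21673936 to 21675761) only microglial peaks reached into the window. The total cell peaks merged with them lay beyond its 2 kb flank and were not counted as Kat6b peaks.

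**Figure D3:**
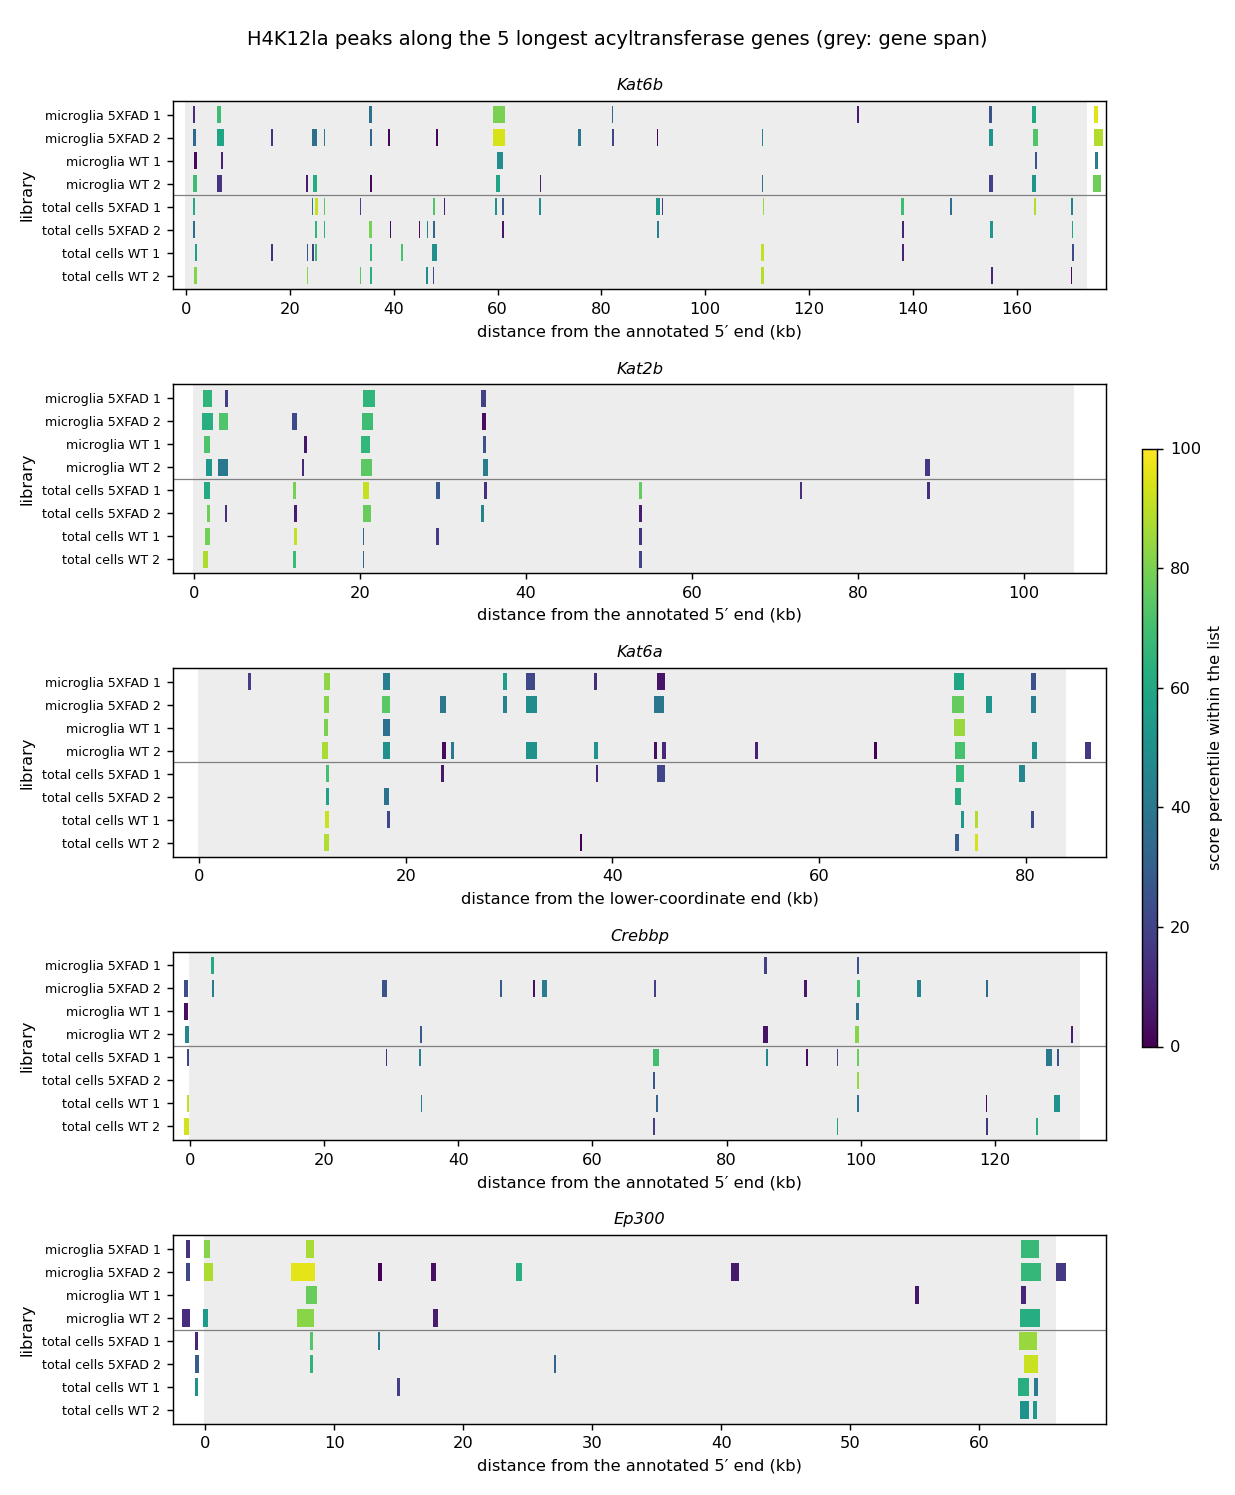
Position of the peaks along the 5 longest genes in the 8 libraries, with distance in kb from the annotated 5′ end (for Kat6a from the lower-coordinate end), grey for the gene span and colour for the score percentile within the list. Peaks lie far inside the genes as well as near the 5′ end, and 6 regions recur in all 8 libraries, 1 in Ep300, 2 in Kat2b, 2 in Kat6a and 1 in Kat6b.

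To compare preparations, the bases covered in a gene window were divided by the Mb covered by the whole list, called the covered share below. This removes the length of a list and its mean peak width, but not the number of reads behind it. Hat1 had a covered share of 41.9 and 56.5 in 5XFAD microglia, 36.2 and 40.4 in WT microglia, 30.9 and 0 in 5XFAD total cells and 0 and 0 in WT total cells. All 4 microglia libraries were above all 4 total cell libraries, with means of 43.8 ± 8.83 in microglia and 7.73 ± 15.5 in total cells (SD, n = 4 each; exact two-sided permutation p = 0.0286). Kat8 had 86.3 and 82.3 in 5XFAD microglia, 114 and 82.1 in WT microglia, 49.9 and 27.1 in 5XFAD total cells and 25.7 and 28.7 in WT total cells. Again the groups did not overlap, and the means were 91.2 ± 15.3 in microglia and 32.9 ± 11.4 in total cells (SD, n = 4 each; exact two-sided permutation p = 0.0286). These were 2 of 10 genes with microglia higher in every library, against 10.6% of the 14445 genes with a listed peak. The Hat1 groups overlapped with the gene span alone, gene ends, the higher-scoring 50% of peaks, lists of equal length or peaks per 10000 peaks, or with scores of at least 50, and the Kat8 groups with gene ends or peaks per 10000 peaks.

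The covered share ran the other way in 2 long genes, against 14.4% of all genes tested. Kat6b had 299.5 and 307 in 5XFAD microglia, 169 and 258 in WT microglia, 453 and 496 in 5XFAD total cells and 486 and 401 in WT total cells. Every microglia library was below every total cell library, with means of 258 ± 63.4 in microglia and 459 ± 42.9 in total cells (SD, n = 4 each; exact two-sided permutation p = 0.0286). Kat2b had 158 and 134 in 5XFAD microglia, 164 and 182 in WT microglia, 238 and 307 in 5XFAD total cells and 197 and 198 in WT total cells, again with no overlap (159 ± 19.7 in microglia and 235 ± 51.8 in total cells; SD, n = 4 each; exact permutation p = 0.0286). Both directions depend on the scaling: covered bases not divided by the list were higher in microglia, by a mean of 2076 bp for Kat6b and 1498 bp for Kat2b. The Kat2b groups also overlapped with the higher-scoring 50% of peaks, scores of at least 50 or peaks per 10000 peaks, and the Kat6b groups with gene ends.

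The other 6 genes overlapped between preparations. Under other settings some of them did not overlap. These were Kat5 with covered bases not divided by the list, Crebbp with the higher-scoring 50% of peaks and Ep300 with scores of at least 50. Kat5 averaged 86.3 ± 26.0 in microglia against 49.5 ± 19.1 in total cells (exact permutation p = 0.0571), and Kat2a 61.7 ± 28.2 in microglia against 17.6 ± 21.1 in total cells (exact permutation p = 0.0857). Crebbp had 53.8 and 143 in 5XFAD microglia, 72.5 and 98.2 in WT microglia, 264 and 58.2 in 5XFAD total cells and 222 and 209.9 in WT total cells, so that replicate 2 of 5XFAD total cells alone fell among the microglia libraries. Ep300 had 128 and 191 in 5XFAD microglia, 95.4 and 163 in WT microglia, 139 and 211 in 5XFAD total cells and 164 and 133 in WT total cells. Crebbp averaged 91.8 ± 38.6 in microglia against 188 ± 89.9 in total cells (exact permutation p = 0.114), and Ep300 144 ± 41.4 in microglia against 162 ± 35.6 in total cells (exact permutation p = 0.514), both with the sign reversed for covered bases not divided by the list. Kat6a and Kat7 gave exact permutation p-values of 0.371 and 0.286. The smallest p of this test over 70 assignments is 0.0286. No gene of the 14445 passed Benjamini-Hochberg adjustment at 0.05: 3610 had an unadjusted p under 0.05, and the smallest adjusted p, shared by all 4 non-overlapping genes here, was 0.114. The median difference was 30.7 for the 10 genes and -4.88 for all genes tested. Summed over the 10 genes, however, the covered share was 1076 to 1358 in microglia and 1182 to 1552 in total cells. The median thus does not show the 10 genes as a set to be higher in microglia. The part of window length in these values was not tested.

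**Figure D4:**
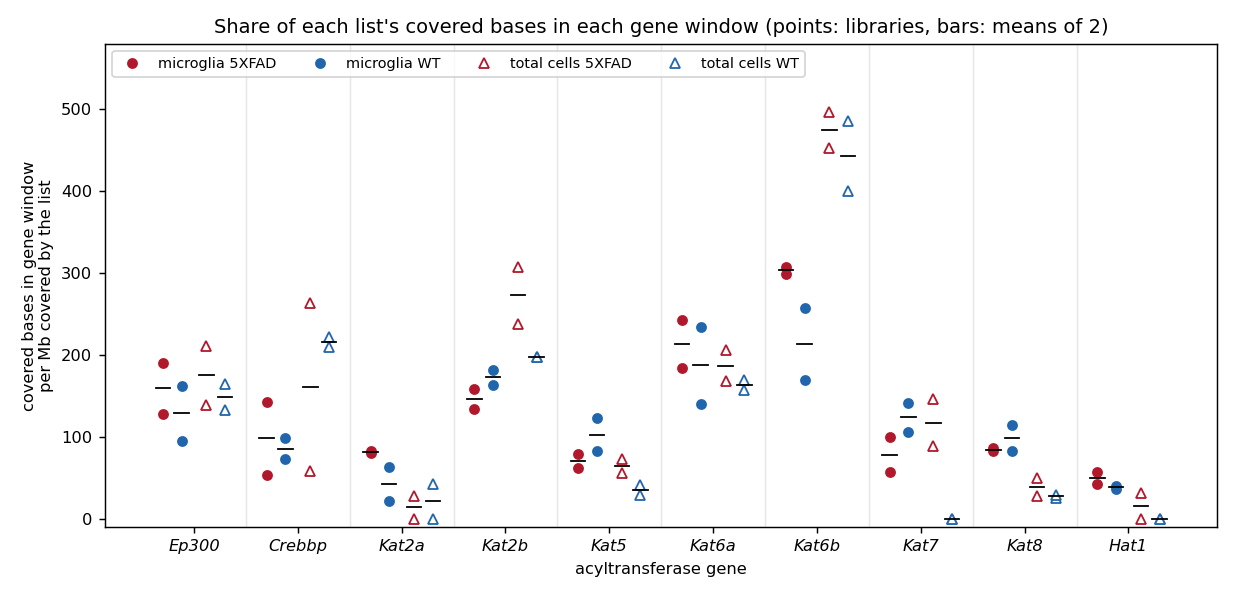
Covered share (bases in the gene window per Mb covered by the list) of the 10 genes, with 1 point per library and short lines for the mean of the 2 libraries of each of the 4 groups. Hat1 and Kat8 are higher and Kat6b and Kat2b lower in every microglia library than in every total cell library.

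Genotype did not separate the libraries of both preparations for any of the 10 genes, against 3.55% of genes with 5XFAD higher and 3.21% with 5XFAD lower in both. This test has 36 arrangements and a smallest p of 0.0556, so it could not pass 0.05. The smallest adjusted p over the 14445 genes was 0.821, and 0 genes had an unadjusted p under 0.05. The mean difference of 5XFAD minus WT was largest for Kat6b, at 60.6 (exact permutation p = 0.111), and for Kat7, at 35.7 (exact permutation p = 0.444). Within microglia, both 5XFAD libraries were above both WT libraries for Kat2a, Kat6b and Hat1, against 19.5% of genes, and below them for Kat2b, Kat5 and Kat7, against 16.6%. Within total cells, both 5XFAD libraries were above both WT libraries for Kat2b, Kat5 and Kat7, against 16.9%, and below them for none, against 18.2%.

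The covered share of Kat2b, Kat5 and Kat7 thus ran in opposite directions in the 2 preparations, as did that of 6.94% of all genes, but with covered bases not divided by the list the microglial genotypes overlapped for all 3, and the direction was opposite for Kat7 alone. On that scale 5XFAD microglia averaged 4179 bp and WT microglia 3627 bp for Kat2b, 2103 and 2019 bp for Kat5, and 2428 and 2472 bp for Kat7, in the same order of genotypes. Kat7 had 56.8 and 99.2 in 5XFAD microglia, 141 and 106 in WT microglia, 88.3 and 146 in 5XFAD total cells and 0 in both WT total cell libraries. Kat5 had 61.4 and 78.5 in 5XFAD microglia, 123 and 82.5 in WT microglia, 55.7 and 72.6 in 5XFAD total cells and 28.3 and 41.3 in WT total cells. The test of the difference between the genotype effects gave an exact permutation p of 0.0556 for each of the 3 genes, the smallest it allows, with an adjusted p of 0.8. Any gene picked for non-overlapping genotypes in opposite directions reaches this smallest p, so the test only restates the pattern. The microglial marker sum had the same opposite pattern: it was 1588 and 1526 in 5XFAD microglia and 1749 and 1926 in WT microglia, but 501 and 411 in 5XFAD total cells and 142 and 334 in WT total cells. In total cells the oligodendrocyte sum was 333 and 361 in 5XFAD and 98.2 and 26.7 in WT libraries. Nearly all of it was Mbp, at 308 and 361.5 in 5XFAD and 98.2 and 26.7 in WT libraries. The vascular sum was 456 and 327 in 5XFAD and 118 and 58.7 in WT libraries. Of this, Pecam1 gave 315 and 241 in 5XFAD and 34.8 and 58.7 in WT libraries. The part of these differences in the values of the 3 genes was not tested.

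Of 17 other enzymes reported to transfer acyl or lactyl groups, 9 had a peak in all 8 libraries, against 26.7% of all genes. Esco2, a cohesin acetyltransferase, had a peak in none, as 1 of 17, against 34% of all genes. Nat10, an acetyltransferase of RNA, had a peak in all 4 microglia and no total cell libraries, as 1 of 17, against 1.2% of genes. Its covered shares were 25.3 and 26.4 in 5XFAD microglia and 32.8 and 22.5 in WT microglia. Naa10, which acetylates the N-terminus of new proteins, had 49.7 and 32.7 in 5XFAD microglia. It was listed at 0 in both WT microglia libraries, a pattern of 1 of 17, against 2.81% of all genes. It was also higher in both 5XFAD total cell libraries, at 46.9 and 68.0, than in both WT ones, at 39.0 and 23.8. Atat1, a tubulin acetyltransferase, went the other way in both preparations, with 39.8 and 60.0 in 5XFAD microglia, 78.0 and 67.9 in WT microglia, 54.0 and 35.3 in 5XFAD total cells and 110.1 and 57.5 in WT total cells. These were 1 higher and 1 lower of 16 tested, against 3.55% and 3.21% of all genes. The covered share was higher in every microglia library than in every total cell library for 2 of the 16 tested, Nat10 and Gtf3c4, and lower for 3, Clock, Ncoa1 and Kat14, against 10.6% and 14.4% of all genes.

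Of 46 genes listed here as subunits of the complexes that hold these enzymes, 20 had a peak in all 8 libraries, against 26.7% of all genes. A further 2, among them Tada2b, had a peak in none, against 34% of all genes. The part of window length in this count and in those of the other gene lists was not tested. The covered share was higher in every microglia library for 4 of 44 tested, Meaf6, Jade1, Jade2 and Kansl1, and lower for 6, Ep400, Kansl2, Tada1, Tada2a, Supt3 and Yeats2, which is near the 10.6% and 14.4% of all genes. Jade2, a scaffold for HBO1, had 147 and 188 in 5XFAD microglia, 159 and 223 in WT microglia, 59.0 and 41.8 in 5XFAD total cells and 38.7 and 41.1 in WT total cells. Ep400, the ATPase of the complex that holds TIP60, had 13.6 and 17.2 in 5XFAD microglia, 47.1 and 24.4 in WT microglia, 127 and 104 in 5XFAD total cells and 138 and 137 in WT total cells. Ep400 was also lower in both 5XFAD than in both WT libraries within each preparation, the only 1 of 44, against 3.21% of all genes, while Brpf1 and Zzz3 were higher in 5XFAD in both, against 3.55%. Rbbp7, the histone chaperone that works with HAT1, had a peak in both 5XFAD and no WT total cell libraries, at 21.8 and 22.6. This held for 1 of the 46, against 2.86% of all genes. Rbbp7 also had a peak in replicate 2 of 5XFAD microglia, at 21.5. Meaf6, a subunit shared by several MYST complexes, had the opposite pattern in total cells, as 1 of the 46, against 1.6% of all genes. It had no peak in either 5XFAD library and 28.4 and 52.4 in WT libraries. Hcfc1, a subunit of the NSL complex, had a peak in both 5XFAD and no WT microglia libraries, at 37.1 and 70.9. This held for 1 of the 46, against 2.81% of all genes. Hcfc1 also had a peak in replicate 1 of 5XFAD total cells, at 13.6.

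Of 8 partners of p300 and CBP, 6 had a peak in all 8 libraries, against 26.7% of all genes. Crtc2, a coactivator of CREB, was lower in every microglia library than in every total cell library, as 1 of 7 tested, against 14.4% of all genes, at 40.5 ± 11.1 in microglia and 77.8 ± 18.7 in total cells (SD, n = 4 each; exact permutation p = 0.0286). Acss2 and Acly make acetyl coenzyme A in nucleus and cytosol. Acss2 had a peak in all 8 libraries, against 26.7% of all genes. It was higher in 5XFAD than WT within both preparations, as 1 of 2 tested, against 3.55% of all genes. Its covered shares were 57.4 and 43.9 in 5XFAD microglia and 28.7 and 22.2 in WT microglia. In total cells they were 116 and 115 in 5XFAD and 65.2 and 27.8 in WT libraries. Acly had a peak in 6 libraries.

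The presence pattern of the 3 genes that varied over the libraries was shared with many others. The Kat7 pattern, a peak in every library but those of WT total cells, was that of 383 other protein-coding genes, of which Scoc, Mtr and Arel1 had the covered bases nearest to Kat7 over the 8 libraries, with mean absolute differences of 306, 331 and 342 bp. For Hat1 245 genes had the same pattern, led by Zfp36l2, Ggnbp2 and Trp53inp2 at 92.1, 99.5 and 104 bp. For Kat2a there were 136, led by Itga5, Plod1 and Abcb4 at 170, 178 and 182 bp.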

How the data were processed

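H4K12la CUT&Tag peak lists of 8 mouse brain libraries were used. Per the submitters' processing notes, the authors used fastp 0.19.6, Bowtie2 and deepTools on GRCm38 (mm10), and the method and threshold of peak calling, and whether a control was used, remain not given in the sources used here. Each list deposited by the authors holds 1 library, with a chromosome, start, end and whole-number score of unstated unit, never below 20, and the score was used here only to rank and filter peaks within a list. Groups and replicate numbers came from the sample titles.

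Gene spans and promoters came from RefSeq tables of GRCm38.p6, and strand and start sites from the promoter table. Starts were taken as counted from 0 and are printed counted from 1. Python 3.11.15 with numpy 2.4.6 and pandas 2.3.3 computed the overlaps and exact two-sided permutation tests, over 70 assignments of libraries to preparations or 36 arrangements of genotype within preparation. Benjamini-Hochberg adjustment was over all 14445 protein-coding genes with a listed peak, with a threshold of 0.05. Every one of the 10 genes is named. Other genes named are those of the listed pathways, first those with a peak in all libraries of a group but none of its counterpart, and the 3 nearest genes of each shared presence pattern. The gene list and the pathway lists were chosen with earlier results of these data known. The merged regions and the undivided covered bases per gene were added after the data had been seen, as were Acss2, Atat1, Brpf1, Zzz3, Ep400, Jade2 and Crtc2 as examples. The code was tested on simulated data. Same-numbered libraries were not treated as paired, since the labels tie them to no shared animal or day. The alternatives tried were other flanks, gene ends, score limits, an overlap of 100 bases, lists of equal length, peaks per 10000, a replicate block and leaving out each library.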

Additional observations from a re-analysis of the deposited data

Results flagged for a closer look

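Among 20 sets of 4 libraries, 1 per gene and preparation, 3 held a library far from the other 3. The limit used flags about 1 in 20 sets of 4 normally distributed values. That rate was not checked for covered shares, so the count of 3 shows no excess over chance. The Kat8 covered share of replicate 1 of WT microglia, 114, stood above the other microglia libraries (82.1 to 86.3). That of replicate 1 of 5XFAD total cells, 49.9, stood above the other total cell libraries (25.7 to 28.7). The Hat1 covered share of the same library, 30.9, stood above 3 total cell libraries at 0. With 3 libraries at 0, any value above 0 in the remaining library would have been flagged.

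The genotype difference in covered share ran in opposite directions in the 2 preparations for 3 genes. The microglial difference of 5XFAD minus WT, less that of total cells, was -102 for Kat2b, -62.1 for Kat5 and -163 for Kat7. In microglia 5XFAD minus WT was -26.6, -32.7 and -45.8 for these genes in that order, and in total cells it was 75.2, 29.4 and 117. The exact permutation p of the difference was 0.0556 for each, the smallest of the 36 arrangements, with an adjusted p of 0.8. This p was fixed by the choice of genes with opposite, non-overlapping genotypes and is no further evidence for them. With covered bases not divided by the list, 5XFAD minus WT in microglia was 553 bp for Kat2b, 84.0 bp for Kat5 and -43.5 bp for Kat7, with overlapping genotypes, and total cells stayed positive, so that the directions were opposite for Kat7 alone.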

How the results depend on the processing

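The count of 7 genes with a peak in all 8 libraries was 4 with windows at the gene ends and 3 with the higher-scoring 50% of each list. Genes in both 5XFAD and no WT total cell libraries (1) became 2 with that 50% or with scores of at least 50. Genes separating microglia from total cells (4) became 1 with gene ends (Kat2b) and 1 with peaks per 10000 peaks (Kat6b). Those separating genotypes (0) became 1 with 5 kb flanks (Kat6b) and 2 with gene ends (Crebbp and Kat6b). Of the merged regions, those in all 8 libraries (8) became 2, and those in total cells alone (2) became 0, with the higher-scoring 50%, and the second count became 5 with lists of equal length.

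Leaving out each library in turn gave 7 genes in all remaining libraries, 0 to 1 in microglia alone (Hat1, without replicate 1 of 5XFAD total cells), 1 to 2 in 5XFAD and not WT total cells, 4 to 6 separating preparations, the same 4 each time among them, and 0 to 1 separating genotypes (Kat6b without replicate 1 of either total cell group, Hat1 without replicate 2 of 5XFAD total cells). Regions ranged from 8 to 9 in all libraries, 1 to 4 in microglia alone (4 without replicate 1 of WT microglia or of 5XFAD total cells, 2 without replicate 1 of 5XFAD microglia or 2 of 5XFAD total cells) and 2 to 5 in total cells alone (5 without replicate 2 of 5XFAD microglia, 4 without replicate 2 of WT total cells). Kat7 was called without any 1 of the total cell libraries, and Hat1 joined it without replicate 2 of 5XFAD total cells.

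Microglia minus total cells reversed for Ep300 with peaks per 10000 (0.223), and with undivided bases for Ep300 (2243), Crebbp (469), Kat2b (1498) and Kat6b (2076). 5XFAD minus WT reversed for Crebbp with the gene span (16.7), peaks per 10000 (0.141) and undivided bases (832), for Kat2a with peaks per 10000 (-0.0955), and for Kat5 with the higher-scoring 50% (27.3), equal lists (3.27) and undivided bases (256). It also reversed for Kat6a with the higher-scoring 50% (-36.7), equal lists (-8.93) and peaks per 10000 (-0.171), and for Kat8 with peaks per 10000 (0.108) and undivided bases (376). Without single libraries, it ranged from -72.4 to 30.5 for Crebbp, -11.8 to 8.41 for Kat5 and -9.19 to 6.74 for Kat8. The cause of these changes was not tested.

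With the replicate number as a block, 5 genes separated the preparations, at a smallest possible p of 0.125 and beside 35.5% of all genes, and 0 separated genotypes. The numbers were not taken to pair the libraries, since not every correlation was over 0.1: correlations of same-numbered deviations were 0.280 between the microglia groups and -0.0941 to 0.0282 elsewhere. Depth is unknown, so missing peaks set no limit on the mark.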

Other observations

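Across all 21263 promoter windows of protein-coding genes, 23.4% of those holding CCGGAAGT on either strand had a peak in all 8 libraries, and 9.96% of those without it. No library had a peak in 17.6% of the windows with it and in 57.0% of those without it. For TATAAA the shares with a peak in all 8 libraries were 3.84% with the motif and 11.6% without it, and for the palindrome TGACGTCA, found in 2.23% of windows and recognised by CREB, which binds CBP, they were 26.1% with it and 10.3% without it. None of the windows of the 10 genes held TGACGTCA. GC content and CpG number vary with these motifs, and their part in the shares was not tested.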
